A study of Mus musculus with 4 samples.

Results

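The genes described here are 10 genes for the coat of lipid droplets and for the breakdown of the fat stored in them, out of 28649 genes listed in RNA-seq profiles of cultured mouse fibro-adipogenic progenitors (FAPs). They are the perilipin genes Plin1, Plin2, Plin3 and Plin4, the CIDE genes Cidec and Cidea, and the lipolysis genes Pnpla2, Lipe, Mgll and Abhd5, each taken as the row whose gene name equals that symbol. There were 4 libraries: 2 came from FAPs of miR-206 knockout (KO) mice and 2 from FAPs of wild-type (WT) C57Bl/6 mice. FAPs of both genotypes were sorted from skeletal muscle as Sca1-positive cells, expanded with serum and FGF, and then held for 48 hours in DMEM with 10% horse serum (the medium named BM) before RNA extraction. The labels do not give the age or sex of the mice, the strain background of the KO mice, or whether the replicates came from separate animals or cultures. In mm10 with GENCODE M21 the perilipin genes lie at chr7:79720218-79732903 (Plin1), chr4:86648386-86670060 (Plin2), chr17:56277476-56292873 (Plin3) and chr17:56100591-56109803 (Plin4). The CIDE genes lie at chr6:113424634-113435760 (Cidec) and chr18:67343604-67367785 (Cidea), and the lipolysis genes at chr7:141455198-141460743 (Pnpla2), chr7:25379527-25398710 (Lipe), chr6:88724412-88828360 (Mgll) and chr9:122351608-122381524 (Abhd5). A strain difference cannot be told apart from the loss of miR-206, and p-values measure the spread between these libraries, which may be technical.

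A lipid droplet is a core of triglyceride under a single layer of phospholipid, and perilipins are the proteins that coat this surface. Perilipin 1 is the coat protein of adipocytes and holds the co-activator encoded by Abhd5 (CGI-58) away from the lipase until protein kinase A phosphorylates it. Perilipins 2 and 3 are made in most cell types, and perilipin 4 is found mainly in adipocytes and muscle. Cidec (Fsp27) and Cidea encode proteins that sit where droplets touch and pass lipid from the smaller to the larger one. Lipolysis runs in sequence: adipose triglyceride lipase (ATGL, from Pnpla2) takes the first fatty acid, hormone-sensitive lipase (from Lipe) the next, and monoglyceride lipase (from Mgll) the last. FAPs are the cells from which fat inside skeletal muscle arises, and many of these genes are switched on by PPARG as FAPs turn into adipocytes.

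miR-206 pairs with its targets through its seed, bases 2 to 8, shown in capitals in the mature strand from RefSeq (build GRCm38.p6, chr1:20679055-20679076, plus strand). For each of the 10 genes, the transcript with the longest 3' UTR was searched for 7mer and 8mer sites. A 7mer site matches bases 2 to 8, or bases 2 to 7 with an A opposite base 1, and an 8mer site has both. Such sites were found in 2 genes, Plin4 and Mgll. The shorter match CATTCC alone was in the 3' UTRs of Plin1 and Pnpla2 and was not counted as a site. The Plin4 site is an 8mer in its 3' UTR on chromosome 17 (mm10 chr17:56101514-56101543, minus strand). The Mgll site is a 7mer on chromosome 6 (mm10 chr6:88827474-88827502, plus strand), of the kind that matches bases 2 to 7 with the A. Capitals mark the bases that pair with the seed, with the A opposite base 1.
mmu-miR-206-3p: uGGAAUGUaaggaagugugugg
Plin4 site: accacacaattACATTCCAggctgctatag
Mgll site: taagttaaaacCATTCCAgactactgtgc
Of 21020 genes with an annotated 3' UTR, 3563 (17.0%) held an 8mer or 7mer site. The transcripts of both site-bearing genes averaged less in KO than in WT cells, as described below, and neither difference passed the test.

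Promoter windows from RefSeq (GRCm38.p6, 250 bases before to 50 after a start site) were at hand for 9 of the 10 genes, 12 windows in all. Those of Plin1, Cidec and Plin2 are shown because Cidec and Plin2 passed the test and Plin1 is the adipocyte coat gene whose profile the nearest genes below were measured against. The Plin1 window is chr7:79732727-79733026, the Cidec window chr6:113434715-113435014 and the Plin2 window chr4:86670010-86670309, each read on the minus strand. Cidec has another window, at chr6:113435711-113436010, which held 0 matches to the motifs below and is not printed. Capitals mark every match, on either strand, to the 7 motifs searched.
Plin1: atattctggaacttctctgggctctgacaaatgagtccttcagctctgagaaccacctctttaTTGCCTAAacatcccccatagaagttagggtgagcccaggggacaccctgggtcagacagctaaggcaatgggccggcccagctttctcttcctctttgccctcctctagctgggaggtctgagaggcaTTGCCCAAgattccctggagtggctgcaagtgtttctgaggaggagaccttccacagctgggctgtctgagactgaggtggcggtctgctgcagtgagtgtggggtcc
Cidec: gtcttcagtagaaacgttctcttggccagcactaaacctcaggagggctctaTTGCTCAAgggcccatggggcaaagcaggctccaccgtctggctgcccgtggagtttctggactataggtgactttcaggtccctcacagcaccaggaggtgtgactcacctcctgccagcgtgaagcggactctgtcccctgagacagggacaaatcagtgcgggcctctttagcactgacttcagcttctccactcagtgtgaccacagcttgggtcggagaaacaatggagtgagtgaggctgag
Plin2: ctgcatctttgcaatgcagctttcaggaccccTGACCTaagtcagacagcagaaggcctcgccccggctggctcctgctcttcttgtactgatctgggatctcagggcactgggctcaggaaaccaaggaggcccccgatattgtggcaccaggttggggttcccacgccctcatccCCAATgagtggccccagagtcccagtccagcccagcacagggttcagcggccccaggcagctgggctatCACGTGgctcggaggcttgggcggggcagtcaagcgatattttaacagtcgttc
The motifs were the PPAR response element (a repeat of AGGTCA in the same direction with a single base between the copies), its half-site alone, the loose C/EBP-type site TTGCNNAA, the cAMP response element TGACGTCA, the E-box with letters CACGTG, the CCAAT box with those letters, and the TATA box with letters TATAAA. The half-site is contained in the full element, and overlaps were not removed. The PPAR element was in 0 of the 12 windows and in 0.0396% of all 32851 windows. The C/EBP-type site was in 1 window each of Plin1 and Cidec, against 10.8% of all windows, and Plin1 held it at 2 places. The half-site was in windows of Plin2 and Abhd5 (16.3% of all windows), the E-box in windows of Plin2, Mgll and Lipe (7.15%), and CCAAT in those of Plin2, Plin3 and Plin4 (37.4%). The cAMP response element and the TATA box were in 0 of the 12 windows (1.79% and 13.6% of all). A match is a string of letters and not a shown binding site, and a missing match says nothing of sites outside these windows.

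The libraries held 35521839 and 30550235 estimated counts in KO and 34827986 and 44561117 in WT. FAP markers were high throughout, with 7 genes such as Pdgfra and Dcn summing to between 6071 and 7161 TPM (a level scaled for depth and transcript length) per library. Ly6a, which encodes the Sca1 sort marker and is one of the 7, had 1379 and 1597 TPM in KO, against 1908 and 2696 TPM in WT (log2 fold change -0.61, edgeR adjusted p = 0.238). It was the only 1 of the 7 with both KO libraries below both WT libraries in CPM. Pdgfra, Dcn and Lum had both KO libraries above both WT libraries (log2 fold changes 0.38, 0.49 and 0.42), as did 3462 of 14507 tested genes. Of the 7, 0 were called. Myogenic markers were also present: the 9 listed of them summed to 1033 and 123 TPM in KO replicates 1 and 2 and to 1949 and 1143 TPM in WT replicates 1 and 2. The 9 adipocyte markers summed to 839 and 578 TPM in the KO libraries and to 1744 and 1241 TPM in the WT libraries. Lpl alone held most of this, at 666 and 468 TPM in KO and 1026 and 919 TPM in WT. The myogenic and the adipocyte sums both ran from KO replicate 2 through KO replicate 1 and WT replicate 2 to WT replicate 1. The same order in TPM was seen in 5 of the 9 tested coat and lipolysis genes (Plin1, Plin4, Cidec, Lipe and Mgll) and in 6.91% of all tested genes. Cidec is no support in this count, since it was let into the test by its WT libraries alone. Of the markers tested, 8 of 8 for adipocytes and 4 of 7 for muscle had both KO libraries below both WT libraries, against 24.4% of all tested genes, and 0 were called in either list. Lep was near 0 throughout, as were Pax7 and Myf5. The part of these cells in the results was not tested, and in bulk RNA fewer adipocytes and less RNA per adipocyte cannot be told apart.

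Coat and lipolysis transcripts were lower in the KO libraries for most of the group, Plin2 and Cidec passing the test and Plin3 showing next to no difference. Levels below are CPM (each count divided by a TMM-normalised library total) unless TPM is named, and fold changes are log2 of KO over WT from edgeR's quasi-likelihood test. Of the 10 genes, 9 passed the filter on low counts, Cidec through its WT libraries alone, and Cidea did not pass. Among the 9, 2 fell and 0 rose at an adjusted p of 0.05, where 0.186% of the 14507 tested genes fell, 0.241% rose and 0.427% changed in either direction. An unadjusted p under 0.05 with a lower KO level was found for 6 of the 9, against 7.18% of tested genes. DESeq2 called 5 of the 10 (Plin1, Plin2, Plin4, Cidec and Pnpla2), all lower in KO. It called 4.84% of the 13756 genes to which it gave an adjusted p in either direction, and 2.49% as lower in KO. A fold change below 0 was found for all 9 tested genes, against 50.4% of tested genes, and one of -1 or lower for 5 of them, against 4.48%. In 8 of the 9, both KO libraries lay below both WT libraries, which held for 24.4% of tested genes. Cidec, let in by its WT libraries alone, is in each of these edgeR counts of lower genes, where it is no support. The median fold change was -1.24 over the 9 genes and -0.94 over the 8 without Cidec, beside -0.00 over all tested genes.

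**Figure D1:**
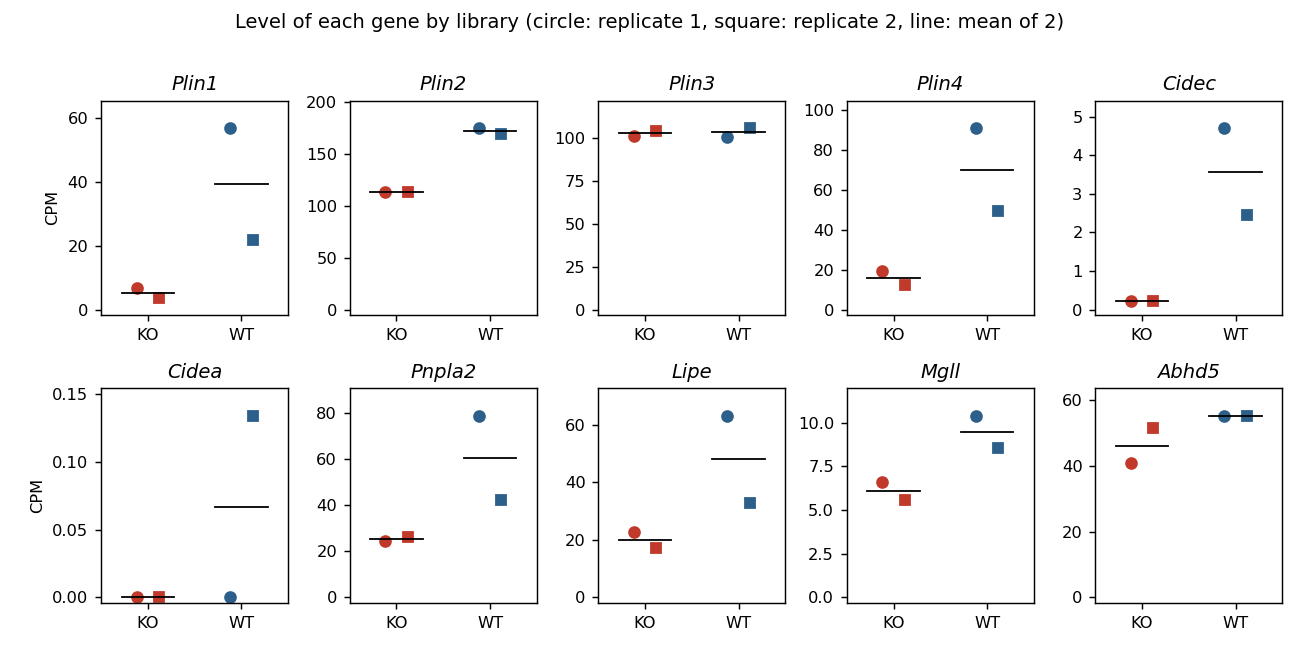
CPM of each of the 10 genes in the KO and WT libraries, with circles for replicate 1, squares for replicate 2 and a line at the mean of 2; each panel has its own axis. Plin2 separates the genotypes with tight pairs (113.6 and 113.2 in KO, 175.2 and 169.1 in WT), whereas the WT pairs of Plin1, Plin4, Cidec, Pnpla2 and Lipe lie far apart.

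Among the perilipins, Plin2, the coat gene of most cell types, fell. It had 113.6 and 113.2 CPM in KO libraries, against 175.2 and 169.1 CPM in WT libraries. The genotypes did not overlap and the replicates of each nearly coincided. The log2 fold change was -0.60 (SE 0.07, 95% interval -0.76 to -0.45), with an adjusted p of 0.0307 by edgeR. The size was stable, between -0.64 and -0.55 over 14 alternative settings, whereas the call held in 5 of them and was lost without any one of the 4 libraries (edgeR adjusted p = 0.124 and 0.146 without KO replicates 1 and 2, 0.0730 and 0.0735 without WT replicates 1 and 2).

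Plin1, the adipocyte perilipin, differed by the largest factor of the 4 perilipins and did not pass the test. Its level was 6.89 and 3.73 CPM in KO libraries, against 57.0 and 21.9 CPM in WT libraries. All KO values were below all WT values, but the WT libraries themselves differed 2.61-fold and the KO libraries 1.85-fold. The log2 fold change was -2.89 (SE 0.76, 95% interval -5.52 to -0.25, edgeR adjusted p = 0.319, unadjusted p = 0.0408). Without WT replicate 1 it was -2.04 and without WT replicate 2 it was -3.42.

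Plin4, which codes for the longest perilipin and carries the miR-206 8mer shown above, followed Plin1. It had 19.2 and 12.5 CPM in KO libraries, against 90.9 and 49.0 CPM in WT libraries. The genotypes did not overlap, and WT replicate 1 was 1.85-fold above WT replicate 2. The log2 fold change was -2.14 (SE 0.48, edgeR adjusted p = 0.277). The DESeq2 adjusted p was 0.00588 for Plin1 and 0.00203 for Plin4.

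Plin3, the other widely expressed perilipin, had 101.6 and 104.4 CPM in KO libraries, against 100.8 and 106.2 CPM in WT libraries. The KO values lay inside the WT range. Its log2 fold change was -0.01 (SE 0.07, edgeR adjusted p = 0.975), with a 95% interval from -0.17 to 0.16, which is narrow enough to leave out a fold change as large as that of Plin2. The sign turned without KO replicate 1 (0.013) and without WT replicate 2 (0.031).

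The make-up of the coat transcripts differed between the libraries of the 2 genotypes. On the TPM scale, the 4 perilipin genes summed to 225.1 and 235.5 TPM in KO libraries, against 363.9 and 323.3 TPM in WT libraries. Plin2 made up 59.6% and 61.3% of that sum in KO and 56.5% and 63.1% in WT, so its share overlapped between genotypes. Plin3 made up 35.2% and 35.7% in KO, against 21.9% and 26.2% in WT. Plin1 made up 2.79% and 1.501% in KO, against 14.5% and 6.33% in WT, and Plin4 2.38% and 1.52% in KO, against 7.06% and 4.35% in WT. The widely expressed pair, Plin2 and Plin3, thus accounted for 94.8% and 96.98% of perilipin TPM in KO libraries and for 78.4% and 89.3% in WT libraries. The exact permutation test gave p = 0.333 for the shares of Plin1, Plin3 and Plin4 and p = 1.0 for that of Plin2, and 0.333 is the smallest two-sided p that 2 libraries against 2 allow.

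**Figure D2:**
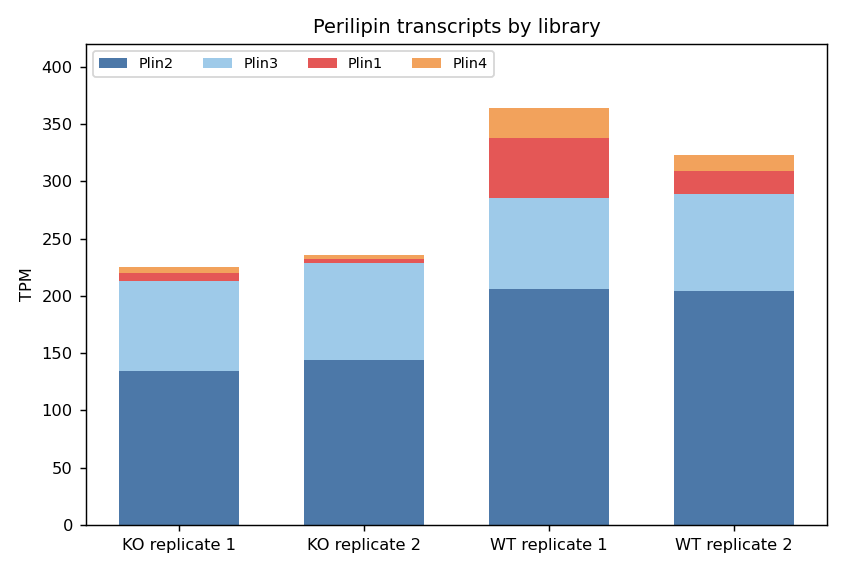
Stacked TPM of the 4 perilipin genes in each library, KO on the left and WT on the right. The Plin3 segment is nearly the same height in all 4 bars (79.3 and 84.1 TPM in KO, 79.7 and 84.9 TPM in WT), the Plin2 segment is lower in both KO bars, and Plin1 and Plin4 are thin in KO and thicker in WT, most of all in WT replicate 1.

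Of the 2 CIDE genes, Cidec fell and Cidea was close to absent from the reads. Cidec had 8 and 7 counts in KO libraries, against 168 and 109 counts in WT libraries. In CPM these were 0.232 and 0.229 in KO, against 4.71 and 2.44 in WT, so that both KO libraries lay far below both WT libraries. The ratio of KO to WT from summed counts was 0.0668, with an exact 95% interval of 0.0369 to 0.112 that covers counting error only. The fitted log2 fold change was -3.93 (SE 0.51, edgeR adjusted p = 0.0468). The call held in 5 of 14 alternative settings and was lost without KO replicate 1, KO replicate 2, WT replicate 1 and WT replicate 2 in turn (edgeR adjusted p = 0.160, 0.193, 0.171 and 0.0581).

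The TPM of Cidec tells of a further uncertainty. It was 0.795 and 0.338 TPM in KO libraries, against 5.29 and 2.50 TPM in WT libraries. Near-equal KO counts thus gave unequal KO TPM, because the counts per TPM, set relative to Plin3 in the same library, were 0.227 and 0.545 in KO, against 0.705 and 0.781 in WT. For the other tested genes this ratio varied little among libraries, for Plin1 between 0.850 and 0.855. With limma on log2(TPM + 1) the fold change of Cidec was -1.60, a scale that understates changes of low genes. With limma on log2(TPM + 0.1) it was -2.58, still smaller in size than the -3.93 from counts. Plin1 had -2.78 on that scale. The order of these genes thus differed between counts and TPM with a pseudocount, and the part of the unit alone was not tested.

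Cidea, a marker of brown and beige adipocytes, had 0 counts in both KO libraries, against 0 and 6 counts in the WT libraries. Counts of 0 allow up to 3 counts, or 0.0868 and 0.0982 CPM in the KO libraries and 0.0841 CPM in WT replicate 1. No fold change is given, since 1 library alone held reads. Ucp1, the defining brown fat gene, was at 0 in all 4 libraries. Not all brown or beige markers were absent. The 7 listed, with Ucp1 and without Cidea, summed to 28.1 and 17.2 TPM in KO libraries. In WT libraries they summed to 47.5 and 21.6 TPM. Dio2 was the highest of the 7, at 17.5 and 10.2 TPM in KO, against 29.96 and 9.36 TPM in WT. Of the 7, 5 were tested and 0 were called.

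All 3 lipase genes had lower values in both KO libraries than in both WT libraries, which held for 24.4% of tested genes. Of the 3, 0 passed the test. Pnpla2, for the first lipase, had 24.7 and 26.4 CPM in KO libraries, against 78.9 and 42.2 CPM in WT libraries. The KO pair was tight and below both WT libraries, which differed 1.87-fold from each other. The log2 fold change was -1.24 (SE 0.38, edgeR adjusted p = 0.345). Pnpla2 passed the test without WT replicate 2 (log2 fold change -1.63, edgeR adjusted p = 0.00806), where 0.273% of tested genes did, and with DESeq2 (adjusted p = 1.78e-04), and without WT replicate 1 its fold change was -0.73.

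Lipe, for hormone-sensitive lipase, had 22.8 and 17.3 CPM in KO libraries, against 63.2 and 33.0 CPM in WT libraries. Its log2 fold change was -1.26 (SE 0.43, edgeR adjusted p = 0.385), and without WT replicate 1 it was -0.72. Mgll, for monoglyceride lipase, had 6.60 and 5.56 CPM in KO libraries, against 10.4 and 8.55 CPM in WT libraries. For both genes the genotypes did not overlap, and for Mgll the gap was smaller, with a log2 fold change of -0.64 (SE 0.19, edgeR adjusted p = 0.208). Mgll carries the miR-206 7mer shown above, and its fold change lay between -0.77 and -0.49 over 14 alternative settings with 0 calls.

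Abhd5, for the co-activator of ATGL, differed less than the lipase it acts on. It had 40.8 and 51.5 CPM in KO libraries, against 55.2 CPM in each of the WT libraries (55.25 and 55.19). KO replicate 2 lay close to the WT pair and KO replicate 1 lay below it. The log2 fold change was -0.26 (SE 0.12, 95% interval -0.55 to 0.03, edgeR adjusted p = 0.394). As a ratio within each library, Pnpla2 TPM over Abhd5 TPM was 0.582 and 0.503 in KO, against 1.41 and 0.802 in WT, a separation for which the exact permutation p was again the smallest possible, 0.333. Lipe TPM over Pnpla2 TPM did not separate the genotypes, at 0.586 and 0.409 in KO and 0.532 and 0.478 in WT, and Mgll TPM over Pnpla2 TPM was 0.128 and 0.101 in KO, against 0.0676 and 0.0917 in WT.

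**Figure D3:**
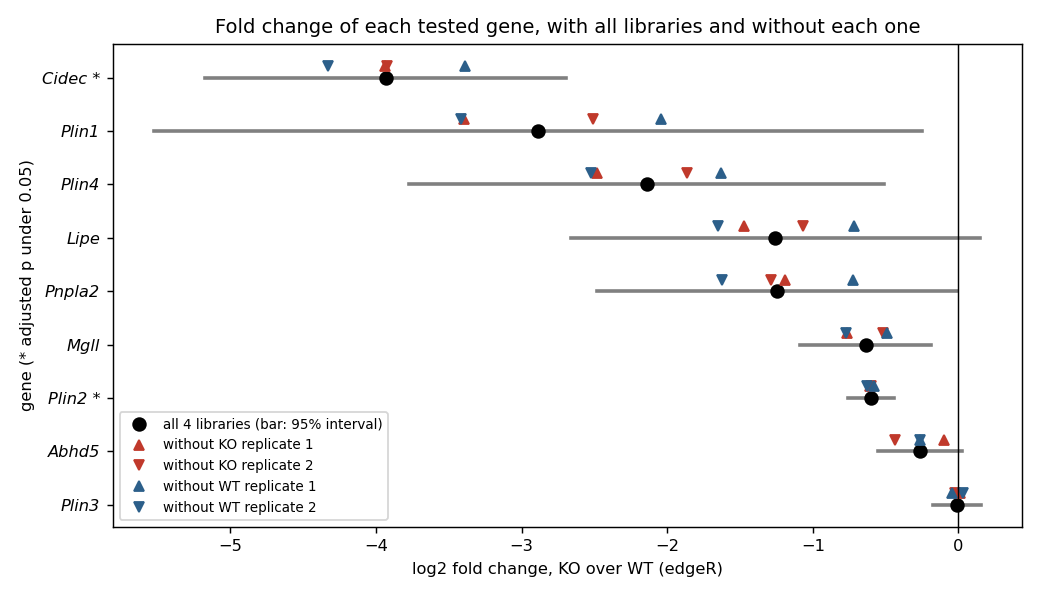
Log2 fold change of KO over WT for the 9 tested genes (black point, with its 95% interval as a grey bar) and the same without each library in turn (triangles, red without a KO library and blue without a WT library); an asterisk marks an adjusted p under 0.05. Cidec lies lowest at -3.93, and Plin2 and Plin3 have the narrowest intervals. For every tested gene but Plin3 and Abhd5, the triangle without WT replicate 1 is the nearest to 0.

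The 9 tested genes fell into 2 sets by how well the WT libraries agreed. In Plin1, Plin4, Cidec, Pnpla2 and Lipe, WT replicate 1 was between 1.85-fold and 2.61-fold above WT replicate 2, and these were the 5 genes with a log2 fold change of -1 or lower. In Plin2, Plin3, Mgll and Abhd5 that ratio was between 0.9496 and 1.22, with fold changes from -0.64 to -0.01. The WT libraries enter both quantities, so the match between them is a description and no test. Over the 9 genes the median log2 difference of replicate 1 over replicate 2 was 0.89 in WT and 0.01 in KO, beside 0.00 and -0.00 over all tested genes. Without WT replicate 1 the median fold change of the 9 genes was -0.72, and without WT replicate 2 it was -1.63.

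By TPM, which allows genes to be compared with each other, Plin2 was the most abundant of the 10 in both genotypes at 139 ± 7.18 TPM in KO and 205 ± 1.19 TPM in WT (SD, n = 2 each). Plin3 came next at 81.7 ± 3.41 TPM in KO and 82.3 ± 3.64 TPM in WT. In KO the order went on with Abhd5 (44.2 ± 8.32 TPM), Pnpla2 (23.8 ± 2.05 TPM) and Lipe (11.7 ± 1.95 TPM), and then Plin1 and Plin4 (4.91 ± 1.95 and 4.47 ± 1.26 TPM), whose KO libraries overlapped. Mgll (2.70 ± 0.219 TPM), Cidec (0.567 ± 0.323 TPM) and Cidea, at 0, were the lowest in KO. In WT, Pnpla2 came after Plin3 at 57.3 ± 21.6 TPM and overlapped with Abhd5 at 51.8 ± 0.769 TPM. Plin1 at 36.7 ± 22.9 TPM overlapped with Abhd5 and with Lipe at 29.3 ± 13.1 TPM, and Lipe with Plin4 at 19.9 ± 8.22 TPM. Mgll at 4.38 ± 0.742 TPM and Cidec at 3.89 ± 1.97 TPM overlapped too, and Cidea averaged 0.106 TPM in WT.

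The profiles of Plin1 and Plin2 over the 4 libraries had different neighbours. Likeness was measured as the Euclidean distance between log2 CPM values centred on each gene's mean over the 4 libraries, among 10545 other tested genes of at least 5 mean CPM, leaving out predicted genes with Gm or Rik names. The nearest to Plin1 was Adipoq, the adiponectin gene, at a distance of 0.124, with 12.8 and 6.55 CPM in KO libraries, against 94.0 and 37.4 CPM in WT libraries. Adrb3, for the beta-3 adrenergic receptor that starts lipolysis in adipocytes, was second (0.440), and Gpd1 (0.626), Cfd (0.752) and Fabp4 (0.814) followed, all known adipocyte genes. The other coat and lipolysis genes formed a graded series of distances from Plin1: Plin4 (0.785), Cidec (1.06), Lipe (1.66), Pnpla2 (1.79), Mgll (2.33), Plin2 (2.46), Abhd5 (2.83) and Plin3 (3.03). Placed among the 10545 ranked genes, Plin4 would come at rank 5, Plin2 at rank 385 and Plin3 at rank 5452. The nearest to Plin2 were Cnksr3 (0.0233), Ctnnal1 (0.0290), Lrrn4cl (0.0601), Trim25 (0.0663) and Hjurp (0.0717), at fold changes between -0.61 and -0.53. With 4 libraries many genes share a profile by their genotype difference alone, and nearness says nothing of shared function.

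Of the other genes of the pathway, in 3 lists by role, 0 passed the test. Of 20 other genes for droplet assembly and surface, 18 were tested and 0 were called by edgeR, also 0 by DESeq2. Over all genes tested, edgeR called 0.427% and DESeq2 4.84%. Before adjustment 1 of them had p under 0.05 with edgeR, where 14.3% of tested genes did, and the median log2 fold change was -0.09. Ptrf (cavin-1) had 641 and 646 CPM in KO, against 720 and 732 CPM in WT (log2 fold change -0.17), and the log2 fold change was 0.45 for Dhrs3 and -0.12 for Cav1. The most negative were Fitm1 (-1.61) and Fitm2 (-0.58), both for proteins needed to bud droplets from the endoplasmic reticulum, and Hilpda, for an inhibitor of ATGL, had 0.22. Fitm1 had 28 and 1 counts in KO, against 58 and 45 counts in WT (SE 1.11, unadjusted p = 0.206 by edgeR). Its KO replicates differed 24.8-fold, so that the fold change rests largely on KO replicate 2. Plin5, the perilipin of oxidative tissues, had 1 count in each KO library, against 0 and 4 counts in WT, and was not tested.

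Of 22 genes for the hormone signalling that drives or brakes lipolysis, 20 were tested and 0 were called by edgeR, with a median of -0.20. Before adjustment 8 had an edgeR p under 0.05, where 14.3% of tested genes did, and DESeq2 called 2, Adrb3 and Prkar2b, against 4.84% of all genes it tested. Adrb3 had 2.05 and 1.60 CPM in KO, against 25.3 and 8.55 CPM in WT (log2 fold change -3.20, SE 0.71, edgeR adjusted p = 0.226). Adora1, for a receptor that restrains lipolysis, had 1.02 and 0.0393 CPM in KO, against 2.69 and 1.89 CPM in WT (log2 fold change -2.09, SE 1.19, unadjusted p = 0.148 by edgeR). Its KO replicates differed 25.9-fold, so that the size of the fold change depends in part on KO replicate 2. Both KO libraries lay below both WT libraries for both receptors, as they did for 24.4% of tested genes. The 3 most abundant genes of the list had log2 fold changes of -0.12 (Gnas, for the stimulatory G protein), -0.09 (Prkar1a) and -0.22 (Prkaca), and the 2 highest fold changes were 0.17 for Prkacb and 0.29 for Prkar1b, these 4 Prk genes encoding subunits of protein kinase A. Prkar2b, the regulatory subunit of protein kinase A that prevails in fat, had 13.2 and 13.8 CPM in KO, against 37.0 and 25.1 CPM in WT (log2 fold change -1.20, edgeR adjusted p = 0.0841), and is named here after its values were seen.

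Of 18 other lipases, lipase inhibitors and carriers of the products, 16 were tested and 0 were called by edgeR, 4 of them having p under 0.05 before adjustment, with a median of -0.23. The share with such a p was 14.3% over all tested genes. DESeq2 called 2, G0s2 and Fabp5, against the same 4.84% of all genes. G0s2, for the inhibitor that binds ATGL, had 16.6 and 10.6 CPM in KO, against 43.4 and 26.1 CPM in WT (log2 fold change -1.35, SE 0.38, edgeR adjusted p = 0.294), and is named after its values were seen. G0s2 TPM over Pnpla2 TPM was 1.61 and 0.958 in KO, against 1.33 and 1.38 in WT, so the ratio of inhibitor to lipase transcripts overlapped between genotypes. Pnpla3 had -2.43 from low levels, and Fabp4, the adipocyte fatty acid binding protein gene, had -2.06. The lysosomal lipase gene Lipa (-0.14) and the genes Abhd12 (0.04), Ddhd2 (0.04) and Pnpla6 (0.14) lay close to 0.

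**Figure D4:**
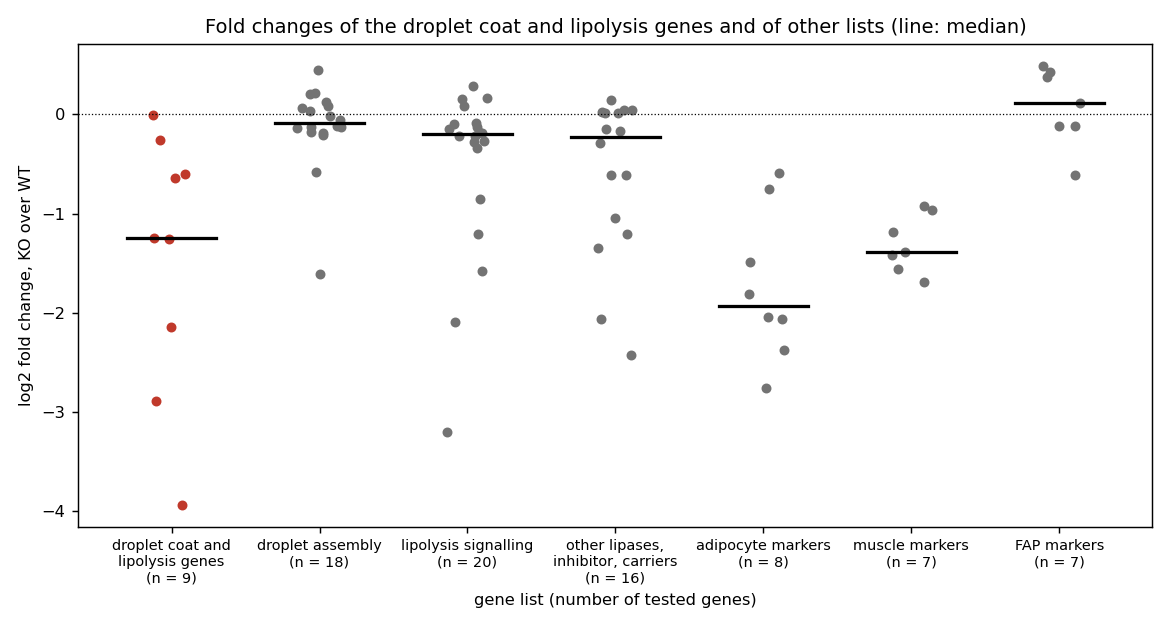
Log2 fold change of KO over WT (each point a tested gene, line at the median) for the droplet coat and lipolysis genes and for other lists. The adipocyte markers have a median of -1.93, the muscle markers -1.39 and the FAP markers 0.12, beside -1.24 for the coat and lipolysis genes.

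In the authors' deposited table, 9 of the 10 genes were given, all but Cidea. The log2 differences of mean TPM in the authors' deposited table were -2.90 for Plin1, -2.15 for Plin4, -1.33 for Lipe, -1.27 for Pnpla2, -0.70 for Mgll, -0.56 for Plin2, -0.23 for Abhd5 and -0.01 for Plin3. For Cidec the authors' deposited table gave -1.96, with the KO mean written as 0 on both the TPM and the log2 scale, although its KO libraries held 0.795 and 0.338 TPM.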

How the data were processed

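Polyadenylated RNA was sequenced from 4 samples of cultured, sorted FAPs with a stranded mRNA kit, per the labels' protocols. FastQC, kallisto and build mm10 are named in the submitters' processing notes; the sources used here give no versions, annotation or strand setting, nor how transcripts were summed to genes. The authors deposited estimated counts per gene, not normalized, and TPM, which summed to between 907609 and 922339 per library, as well as log2 values of genotype mean TPM and their difference. kallisto divides shared reads by likelihood, so similar genes can exchange reads.

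Estimated counts were rounded and fitted over all genes with edgeR 4.0.16 in R 4.3.3 (quasi-likelihood F-test, robust estimation, TMM, filterByExpr, Benjamini-Hochberg over 14507 genes, threshold 0.05, two-sided). The standard error is the log2 fold change over the root of F. DESeq2 1.42.0, limma 3.58.1, other scalings, no filter, TPM with pseudocounts of 1 and 0.1, a replicate block and fits without each library were alternatives. The fit was tested on simulated data. Motifs and seed sites were searched in RefSeq GRCm38.p6 promoters and GENCODE M21 transcripts. The genes and lists were chosen with earlier results of these data known. From each list the called genes were named, or else the 3 most abundant, with the 2 highest and 2 lowest fold changes. For Plin1 and Plin2 the 5 nearest genes were named. The KO label has no check here, since Mir206 was not analysed here.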

Additional observations from a re-analysis of the deposited data

How the results depend on the processing

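Of the 10 genes, 2 were called in the reported fit. The number called was 0 without robust estimation, with limma-voom and with limma on log2(TPM + 1), on log2(TPM + 0.1) and on log2(TPM + 1) with no filter, 5 with DESeq2, and between 0 and 1 in the fits without a library; it stayed at 2 with RLE size factors, library size alone and no low-count filter. Over all genes the count of calls was 62 in the reported fit, 133 with library size alone, 491 with no low-count filter, 11 without robust estimation, 666 with DESeq2, 14 with limma-voom, 6 with limma on log2(TPM + 1), 4 on log2(TPM + 0.1) and 4 on log2(TPM + 1) with no filter, and between 7 and 77 without a library. In the lipolysis signalling list, 0 in the reported fit, the count was 1 with no low-count filter, 2 with DESeq2 and 0 to 2 without a library, and in the list of other lipases 2 with DESeq2. The labels do not say whether same-numbered KO and WT replicates share a day or batch, and with 2 pairs the data do not settle it; replicate 1 minus replicate 2 in KO and in WT correlated at 0.187 over 14507 genes. With the replicate block 5 of the 10 genes were called (Plin1, Plin2, Plin4, Cidec and Lipe, edgeR adjusted p = 0.00829, 0.0248, 0.00502, 0.0313 and 0.0449), 265 genes in all (1.83%), 1 in the signalling list and 2 in the list of other lipases. The log2 fold change of Plin3 lay between -0.0455 and 0.0307 without a library, its sign turning to 0.0126 without KO replicate 1 and to 0.0307 without WT replicate 2; the other 8 tested genes stayed below 0 in all 14 alternatives. The KO minus WT difference in the Plin2 share was 0.648 percentage points and lay between -2.64 and 3.93 without a library, reversed at -0.185 without KO replicate 2 and -2.64 without WT replicate 1. With CPM in place of TPM, which is not scaled by length, the Plin3 difference was 16.2 points, against 11.4, and that of Plin4 -11.2, against -3.75. Fits without a library leave 1 library in a genotype, assumed to vary like the other pair; the cause of a lost call was not tested. Depth limits Cidec and Cidea.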
